A study of Mus musculus with 12 samples.

Results

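Nascent RNA was compared with total RNA of the same macrophage cultures after 270 min of bacterial lipopolysaccharide (LPS), on 4 of the 12 arrays of the study: 2 independent experiments, each with 1 nascent and 1 total RNA array. The macrophages were grown from bone marrow of C3H/HeN mice in medium with L-cell conditioned medium as a source of M-CSF, with IL-3, IL-6 and SCF added during the expansion, and were stimulated with 100 ng/ml LPS from Escherichia coli. In both experiments 200 µM 4-thiouridine was in the medium for the last 35 min before harvest, and RNA that had taken it up was biotinylated and purified on streptavidin beads from the total RNA of the same culture. The other 8 arrays hold the same 2 fractions from unstimulated cultures (0 min) and from cultures with 45 min of LPS, 2 experiments each, all labelled in the same way. The labels do not say how many mice gave marrow, whether it was pooled, or how old the mice were. For stimulation the cells were replated without the conditioned medium. The labels call the experiments independent. The p-values below set a difference against the spread between experiments, which was pooled over the 3 times and drawn towards that of other genes.

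A pulse of 4-thiouridine marks only RNA made while it lasts, so the nascent fraction reports transcription and the total fraction reports the stock of RNA that transcription and decay have built up. An RNA that is made and lost quickly takes a larger share of the nascent fraction than of the total fraction, and a long-lived RNA that has accumulated takes a smaller one. Introns and other parts cut out of a primary transcript are enriched in nascent RNA for the same reason. Each value below is a log2 RMA intensity or, as a difference, the nascent minus the total array of the same experiment averaged over the 2 experiments. Nascent RNA entered the labelling from 100 ng and total RNA from 200 ng. The arrays as scaled by the authors did not share a common distribution. At 270 min the interquartile range over genes ran from 2.246 on a nascent array to 2.733 on a total array (log2). Whether all arrays were scaled together was not tested. A difference of 0 therefore means the same scaled intensity in both fractions, not the same number of molecules and not always the same place among genes.

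Of 19938 genes, each represented by the probe set with the highest mean over the 12 arrays, 1244 (6.24%) were higher in nascent than in total RNA and 1801 (9.03%) were lower (limma on paired differences, Benjamini-Hochberg adjusted p below 0.05). At least a 2-fold difference was reached by 371 of the former and by 917 of the latter. The median over all genes was 0.05, and 90% of the distribution lay between a 5th percentile of -0.95 and a 95th percentile of 0.69. The differences of the 2 experiments correlated across genes with r = 0.77 (19938 genes, which are not independent replicates). Among the 9969 genes with a mean level at or above the median, 1052 were higher and 1692 lower. The fit without the pairing of fractions called 824 higher and 1278 lower. With 1 culture of 270 min left out, the calls numbered 405 higher and 816 lower without experiment 1, and 497 higher and 1166 lower without experiment 2.

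**Figure D1:**
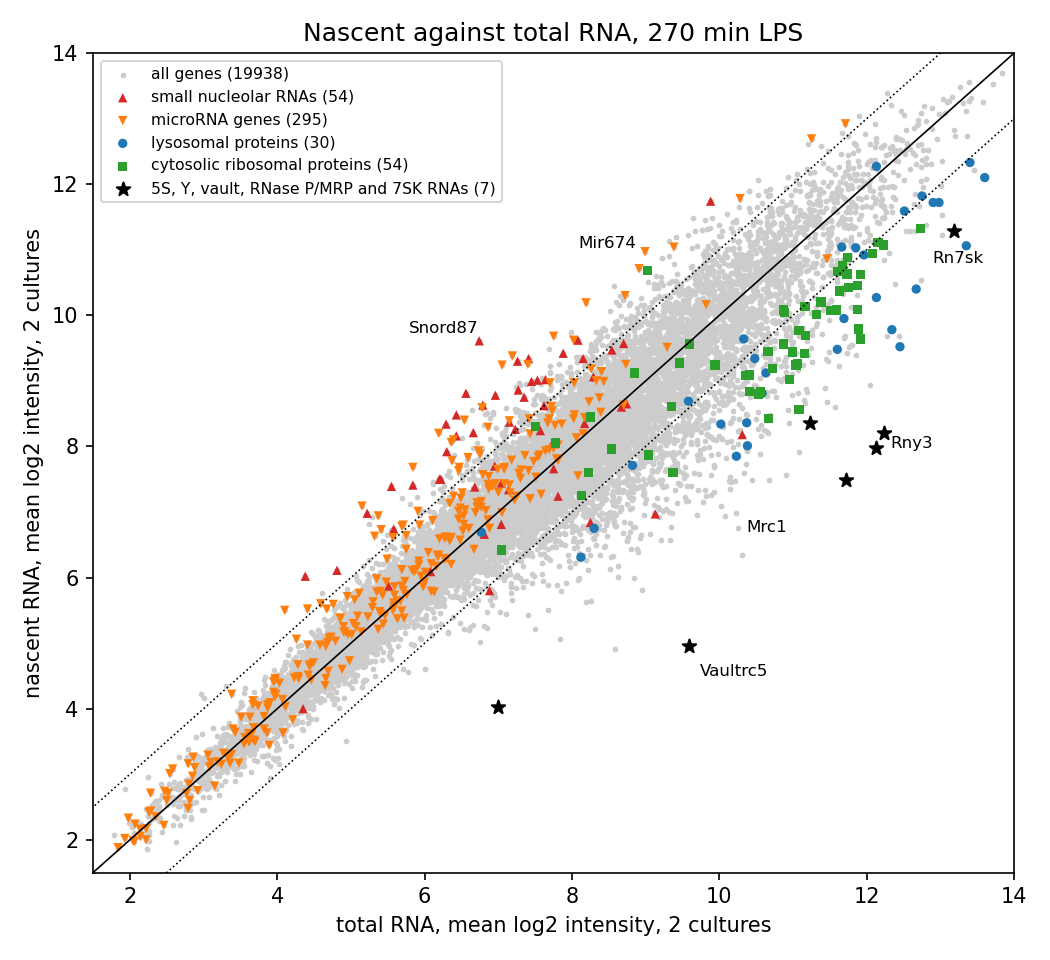
Mean log2 intensity of total RNA (x axis) and nascent RNA (y axis) over the 2 experiments at 270 min of LPS. Each point is a gene, the solid line marks equal values and the dotted lines a 2-fold difference. Most small nucleolar RNA entries lie above the solid line, most lysosomal and ribosomal protein genes below it, and the 7 called 5S, Y, vault, RNase P, RNase MRP and 7SK RNAs lie more than 1.9 log2 units below it on average.

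Background, taken as the 95th percentile of 1027 olfactory receptor genes, was 6.62 and 6.80 (log2 intensity) on the nascent arrays and 6.24 and 6.72 on the total arrays. The total array of experiment 1 had a wider spread (interquartile range over genes of 2.733, against 2.246 to 2.322 on the other 3). With genes ordered by level in 10 groups of 1993 or 1994, the median difference in experiment 1 was 0.12 to 0.18 in the 5 dimmest groups and -0.19 to -0.09 in the 4 brightest. In experiment 2 all 10 medians lay between -0.06 and 0.05. After quantile scaling 1436 genes were higher and 1483 lower, so that 49.2% of the calls were higher against 40.9% as scaled by the authors. After median-centring the share was 33.0%. All 16 macrophage markers were above background on the 4 arrays, with summed intensities of 29142 and 33652 in nascent RNA and 65021 and 80239 in total RNA. Of the markers of other cells, none of 4 B cell, 2 erythroid, 3 megakaryocyte or 9 neutrophil genes was above background on all 4 arrays. For T cells this held for 1 of 5, for dendritic cells for 1 of 6, for fibroblasts for 2 of 6 and for mast cells for 3 of 8.

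Small nucleolar RNAs guide chemical modification of ribosomal and spliceosomal RNA, and most vertebrate ones are cut from introns of other genes. Their median was the highest of the gene lists: 36 of 54 entries were higher, 4 were lower, and the difference was 1.21 at the median against 0.05 for all genes. Snord87, the entry with the largest difference of all genes, read 9.43 and 9.79 in nascent RNA and 6.49 and 6.99 in total RNA. Both nascent values lay more than 2 log2 units above both total values, a 7.31-fold difference (2.87 ± 0.23 log2, SE; adjusted p = 4.28e-08). Snord61 read 8.63 and 8.98 against 6.4 and 6.72 (2.25 ± 0.27; adjusted p = 5.47e-06), again with no overlap. Snord47 (2.05), Snord73b (2.04) and Snora33 (1.93) followed. Snora41 was below background in both total arrays, so that only a bound of at least 3.62-fold is given. Of the 4 entries that went the other way, Snord57 read 6.97 on both nascent arrays against 9.08 and 9.18 (-2.15 ± 0.32). Scarna17, which acts in Cajal bodies, read 8.20 and 8.17 against 10.45 and 10.17 (-2.13 ± 0.21).

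The host genes gave a direct comparison within the same fractions. By position in the RefSeq gene table, 24 small nucleolar RNA entries lay inside 21 protein-coding genes, both measured at or above the median level. In 20 of the 24 pairs the entry had the larger difference in both experiments, and in 1 pair the smaller one. The median was 1.54 over the 24 entries and -0.56 over the 21 hosts, of which 11 were lower in nascent RNA and 1 higher. Rpl23a, a protein of the large ribosomal subunit, read 9.36 and 9.17 in nascent RNA and 11.07 and 11.05 in total RNA (-1.80). The entry Snord42a inside it read 7.68 and 8.17 against 6.49 and 6.12 (1.62). The signal of the gene was thus lower in nascent RNA while that of the entry within its span was higher, and the gap was 2.89 in experiment 1 and 3.94 in experiment 2. The same split held for Snord73b (2.04) in Rps3a1 (-1.24), a small subunit protein. Snora62 (0.70) in Rpsa (-2.38) had a gap of 3.51 and 2.65, but the call on Snora62 itself (adjusted p = 0.0368) was lost without either 270 min culture. Snord57 was the exception, at -2.15 inside Nop56 at -0.08, where Nop56 is a core protein of these ribonucleoprotein particles. Without a filter on level, 24 of 29 pairs had the larger difference at the entry in both experiments. At 0 min the medians were 1.30 for the entries and -0.95 for the hosts. The strand of the small nucleolar RNA entries was not used, and several probes of an entry may read the host's primary transcript as well as the mature RNA, which was not tested.

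**Figure D2:**
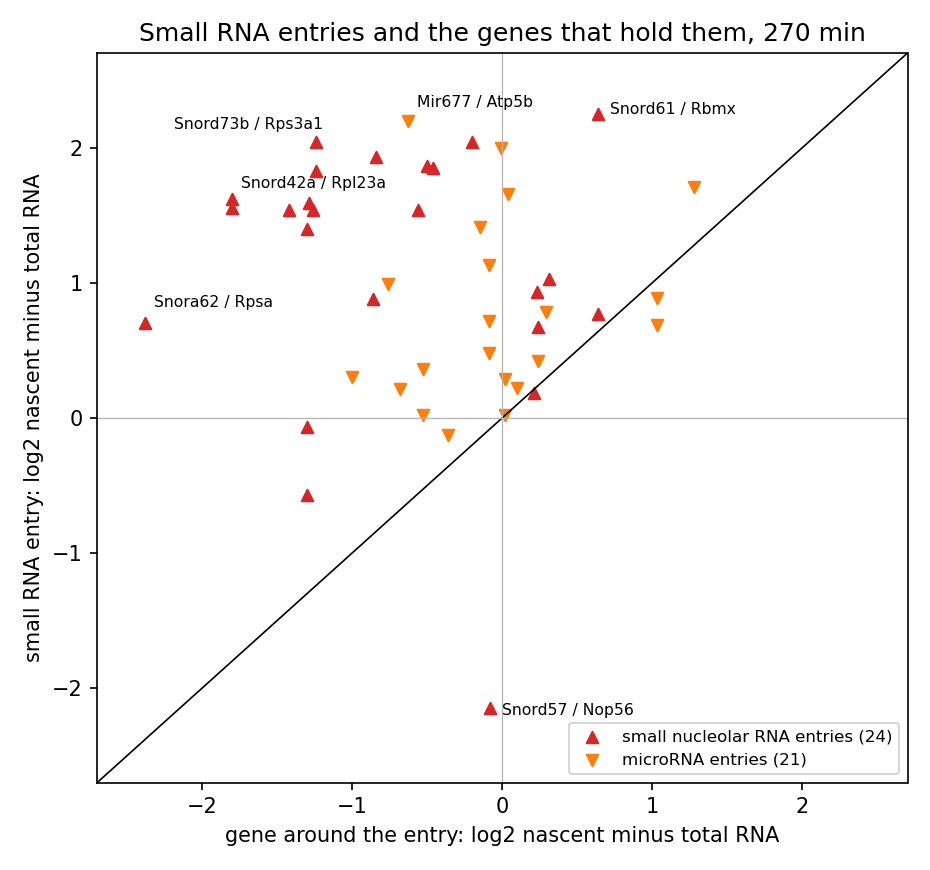
Log2 nascent minus total RNA at 270 min for 24 small nucleolar RNA and 21 microRNA entries (y axis) against the protein-coding gene whose span holds the entry (x axis), means of 2 experiments. The line marks equal values; 36 of the 45 pairs had the entry above the host in both experiments, and Snord57 in Nop56 is an exception.

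MicroRNAs are cut from hairpins in longer primary transcripts, which are short-lived, and the mature forms pair with messenger RNAs through a seed at bases 2 to 8. Of 295 microRNA entries, 67 were higher in nascent RNA and 1 was lower, with a median of 0.27. Over all genes 6.24% were higher and 9.03% lower. Of the 295 entries, 126 were above background on at least 1 array at 270 min. The probes of an entry may read the hairpin or the longer primary transcript as well as the mature form, which was not tested. The values are therefore those of array entries and not of mature microRNAs. The mature sequences below come from the RefSeq tables for GRCm38.p6, which hold 61 of the 67 entries called higher. Shown are the members of 1 cluster, examples of entries that share a seed, and both microRNAs best known from the response to LPS, with the seed in capitals, 5′ to 3′. Further seeds were shared by entries called higher and are not printed.
miR-17-5p: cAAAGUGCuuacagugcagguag
miR-20a-5p: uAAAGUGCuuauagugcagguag
miR-18a-5p: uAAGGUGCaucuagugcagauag
miR-19a-3p: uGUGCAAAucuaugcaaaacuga
miR-19b-3p: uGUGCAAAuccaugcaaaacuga
miR-15a-5p: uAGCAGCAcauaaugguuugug
miR-15b-5p: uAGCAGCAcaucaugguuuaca
miR-16-5p: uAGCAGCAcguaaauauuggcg
let-7a-5p: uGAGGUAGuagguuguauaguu
let-7d-5p: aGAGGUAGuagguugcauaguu
miR-29a-3p: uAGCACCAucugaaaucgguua
miR-29b-3p: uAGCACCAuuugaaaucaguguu
miR-221-3p: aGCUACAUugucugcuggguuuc
miR-222-3p: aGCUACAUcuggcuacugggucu
miR-155-5p: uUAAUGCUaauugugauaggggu
miR-146a-5p: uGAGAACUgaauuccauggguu

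The first 5 sequences are neighbours in 1 cluster on chromosome 14 (chr14:115043671-115044391 for their hairpins, plus strand, GRCm38.p6). Mir92-1, the last hairpin of that cluster, was not among the genes tested. The 5 entries tested were all higher in nascent RNA. Mir19b-1 read 8.77 and 9.71 in nascent RNA and 6.73 and 7.38 in total RNA (4.56-fold; 2.19 ± 0.21 log2, adjusted p = 4.16e-07). Mir20a read 9.13 and 10.24 against 7.52 and 7.97 (1.93 ± 0.22). In both entries the lower nascent value was above the higher total value. Mir19a (1.86), Mir18 (1.85) and Mir17 (1.20) lay in the same direction, as did their host transcript Mir17hg (1.62 ± 0.20). The entries share 1 primary transcript and are not independent of each other.

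Entries with the AGCAGCA seed were called at 2 loci, Mir15a (1.80, not called without the pairing) and Mir16-1 (1.24) on chromosome 14 and Mir15b and Mir16-2 (1.21) on chromosome 3. Mir15b was below background in both total arrays, which bounds it at 1.53-fold or more. The let-7 entries on chromosome 13 read 1.81 for Mirlet7d and 1.70 for Mirlet7f-1, with a bound of at least 2.30-fold for Mirlet7a-1. The remaining pairs were Mir29a, bounded at 3.30-fold or more, with Mir29b-1 (1.57), and Mir221 (1.44) with Mir222 (1.5). Mir674 read 10.95 and 10.99 against 9.0 and 8.99 (1.97 ± 0.21). Mir155, which targets inhibitors of inflammatory signalling, read 12.76 and 13.08 in nascent RNA against 11.50 and 11.91 (1.22 ± 0.21). Mir146, a brake on Toll-like receptor signalling through Irak1 and Traf6, read 10.39 and 10.20 against 8.95 and 8.49 (1.58 ± 0.23). Inside protein-coding genes on the same strand, 16 of 21 microRNA entries had a larger difference than their host in both experiments and 1 a smaller one. Without the filter on level this held for 51 of 78 pairs, with 10 the other way and medians of 0.34 for the entries and 0.01 for the hosts. Mir677 (2.20) in Atp5b (-0.63, not called without either 270 min culture), a subunit of the mitochondrial ATP synthase, had the widest gap of the 21, with 2.71 and 2.96. Mir7-1 (2.00) lay in Hnrnpk (-0.01), a pre-mRNA binding protein.

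The opposite end was held by short structured RNAs of other classes. The lowest 4 were the 5S ribosomal RNA gene n-R5s136, the Y RNA Rny3, the RNase P RNA Rpph1 and the vault RNA Vaultrc5, all made by RNA polymerase III. Rny3 read 7.79 and 8.16 in nascent RNA and 12.38 and 11.85 in total RNA, a 17.7-fold difference (-4.14 ± 0.21 log2; adjusted p = 5.45e-10). The 5S entry read 7.67 and 7.29 against 11.85 and 11.58 (-4.24 ± 0.25; adjusted p = 1e-09). Rpph1, the catalytic RNA that trims transfer RNA precursors, read 8.41 and 7.98 against 12.24 and 12.22 (-4.03 ± 0.25). In all 3 the fractions lay more than 3 log2 units apart in both experiments. Vaultrc5 was under background on both nascent arrays and at 9.39 and 9.78 on the total arrays, at least 7.35-fold lower in nascent RNA. Of 3 more such RNAs, chosen after their values were seen, Rmrp, the RNA of RNase MRP, was at -2.87 ± 0.28, and Rn7sk, which holds the elongation factor P-TEFb inactive, at -1.91 ± 0.24. Rny1 was at least 1.22-fold lower. Rnu6, the U6 spliceosomal RNA, was below background on all 4 arrays. At 0 min the differences were -4.54 for Rny3, -3.21 for n-R5s136 and -3.48 for Rpph1. The labels' protocols describe a spin column clean-up for the labelled RNA only, so that loss of short RNAs on the column and little labelling of these RNAs cannot be told apart.

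Genes of the macrophage's lysosomes were nearly all lower in nascent than in total RNA. Of 30 lysosomal enzymes and membrane proteins, 28 were lower and none higher, with a median of -1.5. Man2b1, the lysosomal alpha-mannosidase, read 9.51 and 9.53 in nascent RNA and 12.53 and 12.38 in total RNA (7.64-fold; -2.93 ± 0.16 log2, adjusted p = 7e-10). Ctsd, cathepsin D, read 11.07 and 11.05 against 13.56 and 13.15 (-2.29 ± 0.14). Lgmn, the asparaginyl endopeptidase legumain, read 9.80 and 9.76 against 12.48 and 12.20 (-2.56 ± 0.15). The fractions did not overlap in any of the 3 genes. The 2 members that were not called were Ctsc (0.14 ± 0.16), the protease that activates granule serine proteases, and Tfeb (-0.08 ± 0.21), the transcription factor of lysosomal genes. Gm2a (-3.34), the activator of ganglioside breakdown, was also among the 15 lowest of all genes. The vacuolar proton pump, which acidifies the lysosome, had 12 of 24 members lower and none higher, led by Atp6ap1 (-1.97) and Atp6ap2 (-1.88).

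Surface and identity genes of macrophages showed the same direction. Of 29 identity genes 19 were lower and 1 higher, with a median of -1.13; the list overlaps the lysosomal one by Cd68, Cd63 and Ctss. Mrc1, the mannose receptor, read 7.03 and 6.95 in nascent RNA and 10.29 and 10.16 in total RNA (9.40-fold; -3.23 ± 0.19, adjusted p = 1.14e-09). Trem2, a lipid-sensing receptor, read 7.80 and 7.39 against 11.15 and 9.53 (-2.75 ± 0.33), with the total arrays of the 2 experiments far apart. Csf1r, the receptor for M-CSF, read 10.56 and 10.07 against 12.11 and 11.63 (-1.56 ± 0.16), and Lyz2, lysozyme, 12.38 and 12.07 against 13.64 and 13.26 (-1.23 ± 0.12). The 1 higher member was Cebpb (0.88 ± 0.22), a transcription factor of the inflammatory response, and its call was lost without experiment 1. Mfge8 (-3.11), which bridges apoptotic cells to phagocytes, Trf (-3.18), transferrin, and Timp2 (-3.20), an inhibitor of metalloproteases, were among the 15 lowest genes of the comparison. So were Ephx1 (-3.96), a microsomal epoxide hydrolase, Aldh2 (-3.49), mitochondrial aldehyde dehydrogenase, S100a6 (-3.13), a calcium-binding protein, and Lgals1 (-2.97), galectin-1. Bex1 and the sodium/proton exchanger Slc9a9 were below background on both nascent arrays, at least 3.65-fold and 4.73-fold lower.

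Lipid and antigen-handling genes were mostly lower where they were called. Among 12 targets of the sterol-sensing receptor LXR, 5 were lower and Mylip was higher (0.65), a call lost without either 270 min culture. Apoe, apolipoprotein E, read 9.03 and 8.33 against 11.88 and 11.04 (-2.78 ± 0.19), and Pltp, the phospholipid transfer protein, was at -2.76 ± 0.16. The cholesterol exporter Abca1 was at 0.30 and was not called. Of 17 antigen presentation genes 9 were lower, led by the class II genes H2-Aa (-2.62), Cd74 (-2.47) and H2-Ab1 (-2.26), and H2-M3 was higher (0.71), again not without either culture. Without experiment 1 or 2, 3 and 4 members were called lower.

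Lists of translation and energy supply genes had medians below that of all genes. Over all genes 9.03% were lower, and 17.0% among genes at or above the median level. In the 4 brightest of the 10 level groups, 253 to 531 of 1993 or 1994 genes were lower, so that smaller shares below are near those of bright genes. Of 54 cytosolic ribosomal protein genes 44 were lower and 2 higher, with a median of -1.27. Rps9 read 8.43 and 8.69 in nascent RNA and 11.22 and 10.93 in total RNA (-2.52 ± 0.23), and Rplp1 9.89 and 9.38 against 12.19 and 11.64 (-2.28 ± 0.22). The fractions did not overlap in either gene. The 2 exceptions were Rpl30 (1.66 ± 0.21), at 10.60 and 10.76 against 8.83 and 9.20, and Rpl12 (0.79 ± 0.25), whose call was lost without either culture. Of 83 nuclear genes for oxidative phosphorylation 54 were lower and none higher, with a median of -0.79. Ndufa1 (-2.25) and Ndufb6 (-1.91), subunits of complex I, and Cox6b1 (-1.86), of cytochrome c oxidase, were the lowest. This count fell to 20 without experiment 1 and to 29 without experiment 2, and was 32 without the pairing and 35 after quantile scaling. Mitochondrial ribosomal proteins had 18 of 77 members lower, 5 and 11 without experiment 1 and 2. Proteasome subunits had 16 of 46, and 2 and 11. Translation factors had 17 of 61, led by Eif5a (-1.87), and 8 and 14. Among 15 glycolysis genes 10 were lower, with Aldoa, fructose-bisphosphate aldolase, at -1.90 and Pkm, pyruvate kinase, at -1.40, and 4 and 7 were called without experiment 1 and 2. Of 29 actin cytoskeleton genes 17 were lower, with Gsn (-2.06), Tmsb10 (-2.05) and Capg (-2.01) at the bottom, and 9 and 13 without the same cultures. Aminoacyl-tRNA synthetases had 7 of 18 lower, and 0 and 4.

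**Figure D3:**
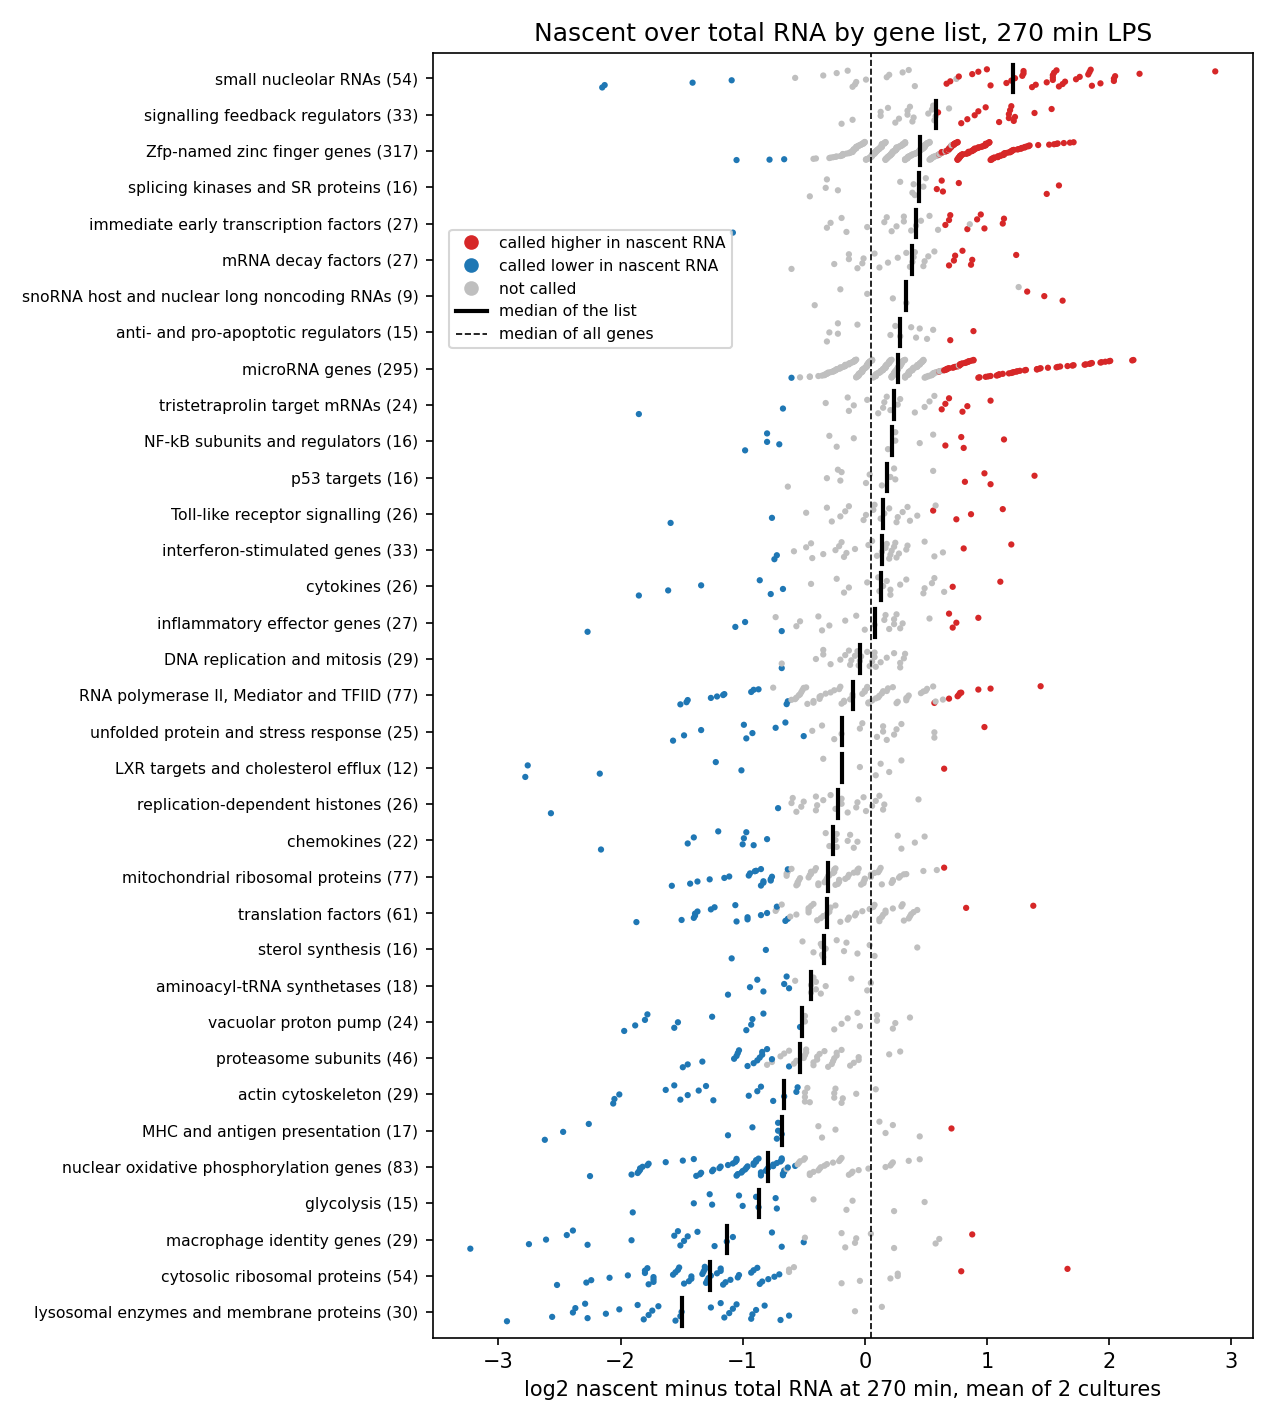
Log2 nascent minus total RNA at 270 min for every member of the gene lists, mean of 2 experiments, with the number of members in parentheses. Red and blue points passed the test as higher or lower, black bars are list medians, and the dashed line is the median of all genes (0.05). Small nucleolar RNAs have the highest median (1.21) and lysosomal proteins the lowest (-1.5).

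Feedback regulators of signalling and zinc finger genes had medians above that of all genes, while the general transcription machinery did not. The shares over all genes were 6.24% higher and 9.03% lower, and 10.6% and 17.0% among genes at or above the median level. The counts for the transcription machinery lay near the latter shares. Of 77 genes of RNA polymerase II, Mediator and TFIID, 9 were higher and 12 lower, with a median of -0.10, and the counts were 1 and 5 without experiment 1 and 1 and 9 without experiment 2. Of 33 feedback regulators of signalling 15 were higher and none lower, with a median of 0.58. In unstimulated cultures 22 of them were higher, with a median of 0.82, and after 45 min of LPS 26, with a median of 1.09. Rgs1, a brake on G protein signalling, read 11.51 and 11.08 in nascent RNA and 9.76 and 9.77 in total RNA (2.89-fold; 1.53 ± 0.20 log2, adjusted p = 2.1e-05). Gadd45a, a stress-induced growth regulator, read 10.94 and 10.62 against 9.58 and 9.20 (1.39 ± 0.17). Neither gene's fractions overlapped. The kinase Sgk1 (1.23), the phosphatases Dusp2 (1.22) and Dusp16 (1.20), and Spry2 (1.18), an inhibitor of receptor tyrosine kinases, were close behind. Of 317 zinc finger genes named Zfp, 115 were higher and 3 lower, with a median of 0.45. In unstimulated cultures 133 of them were higher and 1 lower (median 0.56), and after 45 min of LPS 70 and 12 (median 0.29). Zfp62 was at 1.71 and Zfp87 at 1.68. This count was 49 without experiment 1 and 47 without experiment 2, and the median over the list was 0.43 and 0.45. Splicing kinases and SR proteins had 6 of 16 higher and none lower, with Clk4 at 1.59 and Clk1 at 1.49, and 4 and 2 called without experiment 1 and 2. Of 19 listed long noncoding RNAs that are nuclear or host small nucleolar RNAs, 9 were tested. Of these 3 were higher and 6 not called, with a median of 0.34. Gas5 (1.47) and Snhg5 (1.33) were among the higher ones.

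Immediate early transcription factors, which cells induce without new protein synthesis, had 9 of 27 members higher and 1 lower, with a median of 0.42. The list also holds the regulators Ier3, Btg1, Btg2, Id1, Id2 and Id3. Over all genes the shares were 6.24% higher and 9.03% lower. In unstimulated cultures 10 of the 27 were higher and 1 lower (median 0.52), and after 45 min of LPS 23 and none (median 1.11). Egr2 read 9.90 and 9.19 against 8.63 and 8.19 (1.14 ± 0.18), and Klf6 13.03 and 12.54 against 12.10 and 11.21 (1.13 ± 0.18). Myc was at 0.95 ± 0.22, with its call lost without experiment 1. Jund, an AP-1 subunit present in resting cells, was the lower one at -1.08 ± 0.22, with its call lost without experiment 2. Without experiment 1 or 2 the higher calls numbered 4 and 5. Of 27 factors of messenger RNA decay 7 were higher and none lower, led by the RNase Zc3h12c (1.24 ± 0.19) and the AU-rich element binding protein Zfp36l2 (0.88 ± 0.18, not called without experiment 1). Only 1 and 3 of these calls were made without experiment 1 and 2. NF-kB subunits and their regulators were split, with 4 of 16 higher and 4 lower, 2 and 1 without experiment 1 and 2 and 0 without experiment 2. Tnfaip3, the ubiquitin-editing brake A20, read 13.17 and 12.90 against 12.12 and 11.68 (1.14 ± 0.16; adjusted p = 3.45e-05). The inhibitor Nfkbia (0.79) and the subunit Rel (0.81) were higher, while Nfkb2 (-0.80) and the coactivator Bcl3 (-0.98) were lower. Of these the calls on Nfkbia, Rel, Nfkb2 and Bcl3 were each lost without at least 1 of the 270 min cultures.

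Of 26 cytokines 2 were higher and 6 lower, with a median of 0.13; without either 270 min culture 1 was higher and 3 were lower. The share called higher was near that of all genes (6.24%) and below that of genes at or above the median level (10.6%). Edn1, endothelin-1, read 13.53 and 13.24 in nascent RNA and 12.40 and 12.16 in total RNA (1.11 ± 0.22). Il23a, a subunit of interleukin-23, read 7.54 and 8.23 against 9.41 and 10.05 (-1.85 ± 0.20). Ebi3 (-1.34), which pairs with Il27 (-0.86, not called without either culture), and Tgfb1 (-1.61) were also lower. The classical products Tnf (0.21 ± 0.16) and Il6 (0.29 ± 0.24) did not pass the test. Of 22 chemokines none was higher and 9 were lower, with a median of -0.26. Ccl6 read 9.79 and 9.69 against 12.09 and 11.71 (-2.16 ± 0.16), Ccl12 was at -1.45 and Cxcl9, an interferon-induced ligand of Cxcr3, at -1.20. The chemokine count was 6 and 8 without experiment 1 and 2. Among 24 messenger RNAs that tristetraprolin is known to destabilise, 6 were higher and 2 lower, and 2 and 2 without the pairing. The median of this list was 0.24, and 0.27 and 0.20 without experiment 1 and 2 of 270 min. In unstimulated cultures 14 of these 24 were higher and none lower, with a median of 0.80. After 45 min of LPS 20 were higher and none lower, with a median of 1.15.

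Of 33 interferon-stimulated genes 2 were higher, 2 lower and 29 not called, over a range of -0.74 to 1.20. Over all genes 6.24% were higher and 9.03% lower, so that calls in this list were about as frequent as elsewhere. Ifit1, an RNA-binding antiviral protein, read 13.32 and 13.28 in nascent RNA and 13.07 and 13.01 in total RNA (0.26 ± 0.25; adjusted p = 0.601). Rsad2, viperin, read 13.32 and 13.34 against 13.26 and 13.05 (0.18 ± 0.20). These misses do not show that the fractions were equal. Mx2, an antiviral GTPase, was higher (1.20 ± 0.21), with its call lost without experiment 2, and Bst2 (-0.74) and Oas3 (-0.72) were lower in the full fit but not without either culture. At 0 min the same list had 4 higher and 7 lower and a median of -0.28. Of 26 genes of Toll-like receptor signalling, the receptor pathway of LPS itself, 4 were higher, 2 lower and 20 not called, with a median of 0.15. Among the called ones Ly96 (MD-2), the co-receptor, was lower at -1.59 ± 0.26. The kinase Map3k8 (1.13 ± 0.17) and the receptor Tlr4 (0.75 ± 0.20) were higher, with the call on Tlr4 lost without either culture.

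Genes were also grouped by how their nascent RNA had responded at 45 min, tested as the difference between the nascent arrays of 0 and 45 min. That test came from the fit without the pairing, whose spread is shared by all 12 arrays, those of 270 min included. The nascent arrays of 0 and 45 min do not enter the 270 min differences, but they do enter the spread behind the calls. Of the 609 genes whose nascent RNA had risen by then, 115 (18.9%) were higher in nascent than total RNA at 270 min and 78 (12.8%) lower, with a median of 0.13. Of 1172 genes whose nascent RNA had fallen, 150 (12.8%) were higher and 232 (19.8%) lower, with a median of -0.03. Among the 18157 others the shares were 5.4% and 8.2%. Genes called at 45 min are brighter than the rest, with median nascent levels at 270 min of 9.07 and 7.61 against 6.51. Among genes at or above the median level, 10.6% were called higher and 17.0% lower.

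The unstimulated cultures gave the background for the ratio. At 0 min, 1511 genes (7.58%) were higher in nascent than in total RNA and 1678 (8.42%) lower. Of the 1244 genes higher at 270 min, 813 (65.4%) were also higher at 0 min, which is 53.8% of the list at 0 min, and 1 was lower. Of the 1801 lower genes, 1114 (61.9%, and 66.4% of the list at 0 min) were lower and 9 higher. At 45 min, 2226 genes (11.2%) were higher and 2834 (14.2%) lower, and the shared genes numbered 793 and 1308. The differences at 270 min correlated across genes with those at 0 min (r = 0.75) and at 45 min (r = 0.70). The arrays of these times are different ones.

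The ratio of nascent to total RNA was larger at 270 than at 0 min for 24 genes (0.12%) and smaller for 144 (0.722%), tested as the difference between the 2 times. For the smaller ones the median nascent level was lower than at 0 min by a difference of -2.39 and the median total level by -0.74. Their median ratio went from -0.08 to -1.74. For a lower level in either fraction, fewer cells of a type and less RNA in each cell cannot be told apart in such bulk samples. Of the 144, 7 were below background in both fractions at 0 min and 24 in nascent RNA at 270 min. Without the pairing the counts were 2 and 47. Without the experiment 1 culture of 0 min they were 283 and 836, without experiment 2 of 0 min 67 and 194, and without either 45 min culture 6 and 46. Leaving out experiment 1 of 270 min gave 17 and 83, and experiment 2 gave 26 and 149.

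Mrc1 showed the pattern of the smaller ratios. At 0 min it read 11.26 and 10.62 in nascent RNA and 11.13 and 10.92 in total RNA, so that the fractions overlapped. At 270 min nascent RNA was at 7.03 and 6.95 while total RNA was still at 10.29 and 10.16. The ratio changed by -3.15 ± 0.28 (adjusted p = 7.24e-06). Tfrc, the transferrin receptor, changed by -2.50 ± 0.25, from 11.04 and 11.55 against 11.41 and 11.53 at 0 min to 7.84 and 7.93 against 10.40 and 10.71. Pmp22 (-2.46), a membrane glycoprotein, the collagen-degrading Ctsk (-2.42), the scavenger receptor Cd36 (-2.40) and Mfge8 (-2.36) followed. Slc9a9 and Bex1 were among the 8 named as well, with fitted changes of -3.21 and -2.29, but both were below background on the nascent arrays at 270 min, so that their size and rank are not measured. Of the 30 lysosomal genes 15 had a smaller ratio than at 0 min, against 0.722% of all genes, and none a larger one. At 0 min 13 of the 30 were lower in nascent RNA. For cytosolic ribosomal proteins neither direction was called between the times, and 46 of 54 were already lower at 0 min.

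For the 24 larger ratios the median nascent level was higher than at 0 min by 1.77 and the median total level by 0.26, and the median ratio went from -1.64 to -0.21. Of the 24, 6 were below background in both fractions at 0 min and 8 in nascent RNA. AW112010, a locus induced by interferon and LPS, read 5.59 and 6.12 in nascent RNA and 7.85 and 8.61 in total RNA at 0 min, and 12.34 and 12.70 against 12.78 and 12.88 at 270 min. The fitted change was 2.07 (adjusted p = 0.00139), with the 0 min nascent values below background, so that its size is not measured. Ccl5, a chemokine for T cells and monocytes, went from 7.51 and 7.77 against 9.31 and 10.38 to 13.06 and 13.18 against 13.33 and 13.35 (1.98 ± 0.28). In both genes all 270 min values lay above all 0 min values. Ly6e is an interferon-induced surface protein. Its total RNA read 11.91 and 11.67 at 0 min and 12.07 and 11.62 at 270 min, while nascent RNA went from 9.33 and 9.77 to 11.49 and 11.19 (1.73 ± 0.27). Cd72, a lectin-like receptor that fell outside the naming rule and was chosen after its values were seen, had total RNA at 10.88 and 11.02 and then 10.49 and 10.42, and nascent RNA at 8.26 and 9.04 and then 10.22 and 10.56 (2.24 ± 0.30). Ms4a4c (2.06), the acute phase protein Saa3 (1.73), BC147527 (1.63), Ebpl (1.57) and Wfdc17 (1.51) were the others of the 8 named. BC147527 was below background in both fractions at 0 min, so that the size of its change is not measured. The calls on BC147527 and Ebpl were lost without experiment 1 of 270 min, that on Wfdc17 without experiment 2, and all 3 without either 45 min culture. At 270 min itself BC147527 was higher in nascent RNA (1.14), and Saa3 (-0.68) and Wfdc17 (-1.29) were lower, all 3 not without experiment 1.

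**Figure D4:**
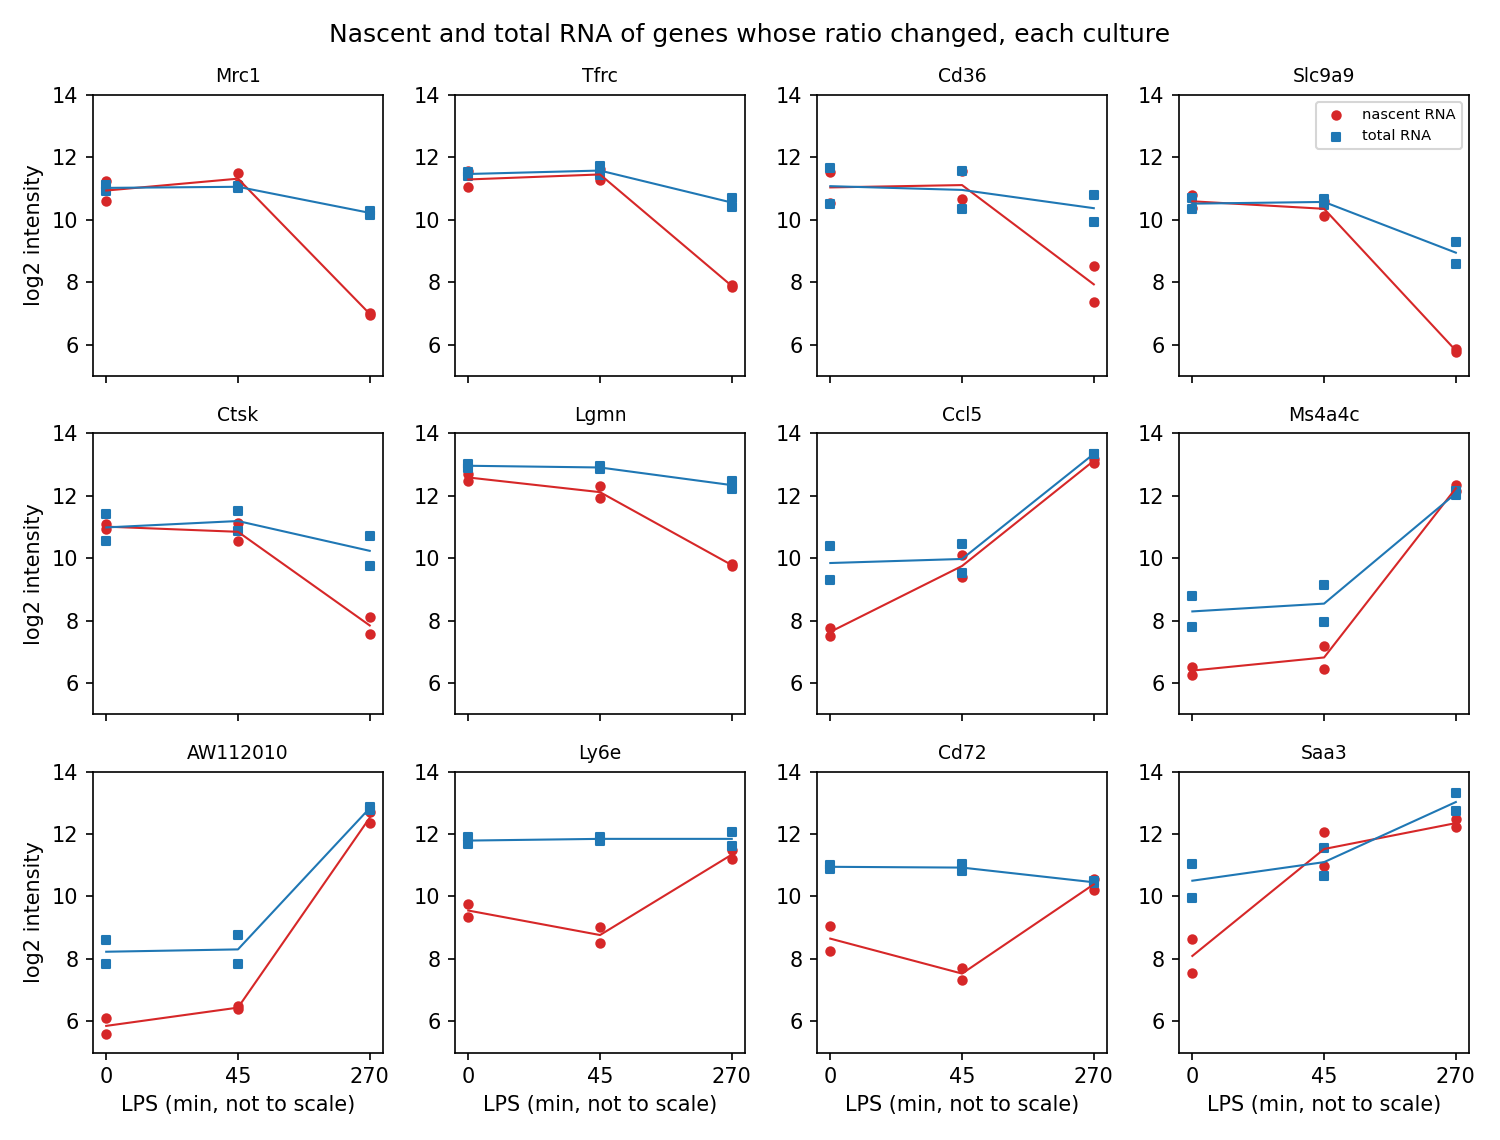
Log2 intensity of nascent (red) and total RNA (blue) at 0, 45 and 270 min of LPS for 12 genes whose ratio differed between 270 and 0 min; points are the 2 experiments and lines join their means, with times evenly spaced. In Mrc1, Tfrc, Cd36, Slc9a9, Ctsk and Lgmn the red points drop below the blue ones at 270 min, and in Ccl5, Ms4a4c, AW112010, Ly6e, Cd72 and Saa3 they meet or approach them.

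Interferon-induced promoters often carry a response element with repeated GAAA, and the RefSeq promoter windows (250 bases before to 50 after the start, GRCm38.p6, from the C57BL/6J reference and not from C3H/HeN) were searched on both strands for GAAA, any 2 bases and GAAA. The motif was in 4 of the 19 larger-ratio genes with a window (21.1%), in 4 of 115 smaller-ratio genes (3.48%), and in 3.89% of the 15614 tested genes with one; no other motif was searched. The 4 were Ifi208, Saa3, Tex12 and BC147527. With 19 genes the share is imprecise, and a match in letters is not a binding site. The calls on Ifi208 and Tex12 were lost without either 45 min culture and without experiment 2 of 0 min. The windows of all 4 are shown with the match in capitals: Ifi208 (chr1:173673415-173673714, plus strand), an interferon-induced gene of the Ifi200 family, Saa3 (chr7:46715627-46715926, minus strand), Tex12 (chr9:50561219-50561518, minus strand) and BC147527 (chr13:120300142-120300441, plus strand).
Ifi208: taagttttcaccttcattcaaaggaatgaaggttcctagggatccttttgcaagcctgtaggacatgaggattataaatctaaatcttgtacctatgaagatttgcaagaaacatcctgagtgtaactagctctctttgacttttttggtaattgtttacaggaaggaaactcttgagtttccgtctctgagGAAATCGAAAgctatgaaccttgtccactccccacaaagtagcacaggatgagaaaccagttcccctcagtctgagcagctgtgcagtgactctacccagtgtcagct
Saa3: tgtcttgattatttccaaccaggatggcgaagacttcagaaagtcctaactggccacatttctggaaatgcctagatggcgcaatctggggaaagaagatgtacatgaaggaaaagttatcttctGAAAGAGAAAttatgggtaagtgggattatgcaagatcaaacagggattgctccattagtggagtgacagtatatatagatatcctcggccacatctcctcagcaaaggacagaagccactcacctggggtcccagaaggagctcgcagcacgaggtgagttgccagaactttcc
Tex12: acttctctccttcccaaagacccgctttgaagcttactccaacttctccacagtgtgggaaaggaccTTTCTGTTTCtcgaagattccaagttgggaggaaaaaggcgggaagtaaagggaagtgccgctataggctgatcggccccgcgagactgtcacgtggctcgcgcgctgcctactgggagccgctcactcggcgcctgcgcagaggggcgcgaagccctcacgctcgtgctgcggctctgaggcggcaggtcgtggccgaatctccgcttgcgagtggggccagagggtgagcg
BC147527: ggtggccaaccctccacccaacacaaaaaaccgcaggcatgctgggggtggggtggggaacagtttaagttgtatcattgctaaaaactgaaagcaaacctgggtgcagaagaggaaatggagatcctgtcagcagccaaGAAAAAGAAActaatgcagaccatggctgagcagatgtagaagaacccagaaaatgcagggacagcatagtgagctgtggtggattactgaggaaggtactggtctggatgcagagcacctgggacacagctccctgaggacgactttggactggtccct

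Against 45 min, the ratio at 270 min was larger for 281 genes (1.41%) and smaller for 358 (1.8%). Ccl12, a monocyte chemokine, had the most negative change. It read 9.06 and 9.37 in nascent RNA and 6.65 and 7.6 in total RNA at 45 min, and 8.5 and 8.94 against 10.26 and 10.08 at 270 min (-3.55 ± 0.33; adjusted p = 6.17e-06). The fractions thus changed order between the 2 times in both experiments. Mt2, a metallothionein, changed by -3.13 ± 0.29 in the same way, from 10.99 and 11.69 against 9.65 and 10.79 to 8.22 and 9.29 against 10.49 and 11.04. H2-Ea (-3.03) and Mrc1 (-3.50) were also among the 6 named. Slc9a9 and Tceal9, with fitted changes of -2.92 and -2.91, were below background on the nascent arrays at 270 min, so that the size is not measured. Of 22 chemokines 15 had a smaller ratio than at 45 min and none a larger one, and of 26 cytokines 11 had. On the other side were Ly6e (2.58), H2-T24 (2.24), Tifab (2.13), Gatm (2.07), Echs1 (2.02) and Ms4a4c (1.89). Without either 45 min culture the calls on H2-T24, Tifab, Echs1 and Ms4a4c were lost, without experiment 2 of 45 min that on Gatm, and without experiment 1 that on Tceal9. The counts were 54 and 130 without the pairing and 7 and 22 without the experiment 1 culture of 45 min and 3 and 51 without experiment 2. Leaving out experiment 1 of 270 min gave 183 and 255, and experiment 2 gave 70 and 212. Without a 0 min culture they were 889 and 756 or 886 and 758.

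**Figure D5:**
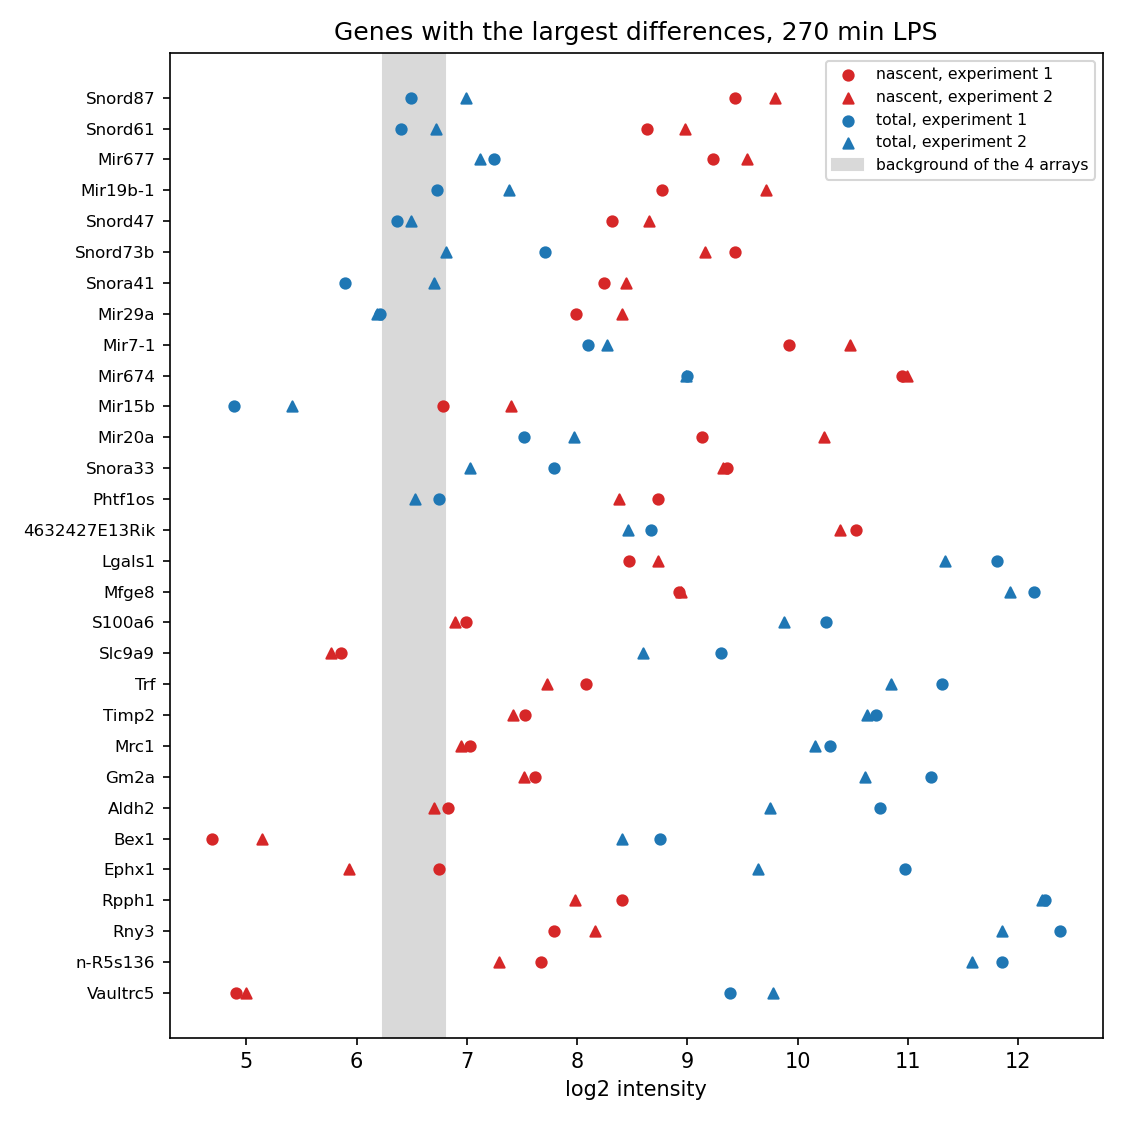
Log2 intensity on each of the 4 arrays at 270 min for the 15 genes with the largest positive and the 15 with the largest negative difference, sorted by difference. Red symbols are nascent and blue symbols total RNA, circles experiment 1 and triangles experiment 2, and the grey band spans the background of the 4 arrays (6.24 to 6.80). The 2 colours do not overlap for any of the 30 genes.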

How the data were processed

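The deposited values are intensities from Affymetrix Mouse Gene ST 1.0 arrays that the authors summarised by RMA; the submitters' processing notes name Affymetrix Expression Console, and versions and the array's build were not stated there. The values are linear, and log2 was taken with no offset. Of 35557 probe sets, 21789 carried exactly 1 symbol in GEO's annotation of the array, 1621 more than 1, and 12147 were not listed. For 999 symbols with several probe sets the one with the highest mean over 12 arrays was kept, which left 19938 genes.

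Nascent minus total RNA was taken within each experiment number and time, since nascent RNA was purified from the total RNA of the same culture, per the labels' protocols. The 6 differences (2 each at 0, 45 and 270 min) were fitted together, with no term for the experiment number across times, with limma 3.58.1 (R 4.3.3; lmFit, eBayes with a trend on mean level; 3 residual degrees of freedom, 16.5 prior), and p-values were adjusted over all genes and are two-sided. Paired arrays deviated together with r = 0.419 at 270 min, 0.175 at 45 min and -0.055 at 0 min. The labels call the 2 experiments independent. With 2 cultures per time the number of arrays limits the precision. The script was tested on simulated data.

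A gene is below background in a fraction when both its arrays lie under the level that 95% of olfactory receptor genes do not exceed; a fold is then given as a bound against that level. Named genes were the 15 largest called differences each way at 270 min, the 8 each way for the change against 0 min, the 6 each way against 45 min, and up to 4 called members of each list (2 of the brightest where none was called); the first 3 groups needed the same sign in both 270 min cultures and a mean in the brighter fraction at or above the median. Other named genes were chosen after their values were seen. The members and lists were chosen with earlier results of these data known. Alternatives changed the pairing, the fit, the scaling, the filter, the offset, the probe set rule and the cultures used.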

Additional observations from a re-analysis of the deposited data

Results flagged for a closer look

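The changes in the ratio of nascent to total RNA between times are listed here because the difference between the times itself passed the test (limma, adjusted p below 0.05). Against 0 min the counts were 24 genes with a larger and 144 with a smaller ratio at 270 min, and against 45 min 281 and 358. The larger ratios against 0 min were AW112010 (2.07), Ms4a4c (2.06), Ccl5 (1.98), Ly6e (1.73), Saa3 (1.73), BC147527 (1.63), Ebpl (1.57) and Wfdc17 (1.51), in log2. AW112010 was below background in nascent RNA at 0 min and BC147527 in both fractions, so that these are fitted values and no measured sizes. The smaller ones were Mrc1 (-3.15), Tfrc (-2.50), Pmp22 (-2.46), Ctsk (-2.42), Cd36 (-2.40) and Mfge8 (-2.36). The fitted values of Slc9a9 (-3.21) and Bex1 (-2.29) rest on nascent levels below background at 270 min.

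Against 45 min the larger ratios were Ly6e (2.58), H2-T24 (2.24), Tifab (2.13), Gatm (2.07), Echs1 (2.02) and Ms4a4c (1.89). The smaller ones were Ccl12 (-3.55), Mrc1 (-3.50), Mt2 (-3.13) and H2-Ea (-3.03). The fitted values of Slc9a9 (-2.92) and Tceal9 (-2.91) rest on nascent levels below background at 270 min. Groups of 2 arrays are too small for the check on single outlying samples.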

How the results depend on the processing

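With no replicate block, that is without the pairing of the fractions of a culture, 824 genes were higher at 270 min. The same fit gave 2 larger and 47 smaller ratios against 0 min, and 54 and 130 against 45 min. A replicate block by experiment number across the 3 times, added after seeing the data, gave 112 larger and 379 smaller ratios against 0 min and 825 and 677 against 45 min. The differences of same-numbered cultures deviated together across genes with r = 0.157 (0 and 45 min), 0.364 (0 and 270 min) and -0.097 (45 and 270 min). Whether same-numbered cultures share more than a number across times was not tested. The 270 min cultures alone gave 2290 higher and 2742 lower. Quantile scaling gave 88 smaller ratios against 0 min and 150 larger against 45 min, cyclic loess 70 and 169, and median-centring 229 smaller against 45 min. With 1 culture left out at a time, the counts ranged from 405 to 1791 higher and 816 to 2370 lower at 270 min, from 6 to 283 larger and 46 to 836 smaller against 0 min, and from 3 to 889 larger and 22 to 758 smaller against 45 min; a lone culture is assumed to vary like the others. The share of higher among called genes was 40.9%, 49.2% after quantile scaling and 33.0% after median-centring. The causes were not tested. Of the 223 named genes, 34 lost their call at 270 min with no replicate block, 40 without experiment 1 and 27 without experiment 2. Signs turned for 4 genes that were not called at 270 min. Cd8a (0.03) was at -0.05, -0.08 and -0.02 under quantile, loess and median-centred scaling and at -0.16 and 0.21 without experiment 1 and 2. Cd79b (0.04) was at -0.05, -0.07 and -0.01 under the same scalings. Cd72 (-0.07) was at 0.01 and 0.06 under quantile and loess scaling and at 0.14 and -0.27 without experiment 1 and 2, where Pax5 (-0.01) was at 0.13 and -0.14. The description by gene span was not run, since the labels name no build for the array.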
